A study of Saccharomyces cerevisiae with 4 samples.

Results

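The genes described here are INO1, ITR1, INO2, INO4 and OPI1, 5 of the 5684 coding genes on the 15 nuclear chromosomes used. INO1 and ITR1 were taken as the genes of inositol synthesis and uptake, and INO2, INO4 and OPI1 as their regulators. The set was chosen by function and by earlier tag counts upstream of the start codons, where INO1 had stood among the highest genes of the Lsm1-TAP library. The values upstream of all 5 genes are therefore a description. Calls and intervals given for them show counting error only and test nothing about the set.

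Inositol is the head group of phosphatidylinositol and the precursor of the inositol phosphates. INO1 encodes inositol 3-phosphate synthase, which makes it from glucose 6-phosphate, and ITR1 encodes the main myo-inositol transporter of the plasma membrane. Ino2 and Ino4 are basic helix-loop-helix proteins that bind as a heterodimer to an inositol-responsive element upstream of phospholipid genes and activate them. Opi1 binds Ino2 and represses the same genes when inositol is available, and it is held at the endoplasmic reticulum by phosphatidic acid and Scs2 when inositol is scarce.

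The series holds ChIP-exo libraries from budding yeast, Saccharomyces cerevisiae, grown in YPD, a rich glucose medium. In ChIP-exo an exonuclease trims crosslinked DNA back towards the protein, so the ends of the sequenced tags lie close to its borders. All 4 strains share the background yMC458. The genotypes are XRN1-TAP, whose tagged protein is a 5′ to 3′ exonuclease of mRNA, DCP2-TAP, with the catalytic subunit of the decapping enzyme, LSM1-TAP, with a subunit of the Lsm ring that promotes decapping, and a strain with no TAP tag (No-TAP), the control. The TAP tag carries a protein A part that binds the IgG beads used for the pull-down. Each strain gave 1 library, so differences between strains have no replicate error, and every interval given is a 95% interval for counting error alone. Values listed for the 4 libraries without names stand in the order Xrn1-TAP, Dcp2-TAP, Lsm1-TAP, No-TAP, and those for the 3 tagged libraries in the same order.

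A distinct position is a base and strand with at least 1 tag, counted once however many tags it has. The Xrn1-TAP library held 18481 positions, Dcp2-TAP 44955, Lsm1-TAP 25342 and No-TAP 4743, with 7.04 to 8.56 tags per position. Tags at 1 base can be PCR copies of a single fragment and are not independent molecules. The 500 bp window upstream of a start codon held on average 1.26, 3.20, 1.57 and 0.323 positions across the 4 libraries. In No-TAP 75.5% of gene windows held none.

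All 5 genes are encoded on the reverse strand, so a forward-strand position on the start codon side of a reverse-strand position faces it across the DNA between them. The start codons come from the R64 gene table, and no build is given for the tag indices. The offset that put most positions upstream of start codons was between -30 and 30 bp in the 200 kb on either side of each gene, and between -20 and 50 bp on the whole chromosomes IV, VIII, X and XV. Distances to start codons may be off by as much. Distances between positions within a window do not depend on the gene table.

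INO1 (YJL153C, chromosome X) was dense in all 3 tagged libraries. Its window held 8 positions with 119 tags in Xrn1-TAP, 10 positions with 102 tags in Dcp2-TAP and 12 positions with 246 tags in Lsm1-TAP, beside 2 positions with 22 tags in No-TAP. Against the mean window of each library this was 6.35 times (2.74 to 12.5), 3.12 times (1.50 to 5.74), 7.62 times (3.94 to 13.3) and 6.20 times (0.751 to 22.4). The No-TAP fold is as high as those of the tagged libraries, but it rests on 2 positions and its interval holds 1. In Lsm1-TAP, 6 other genes had more tags upstream than INO1, against 16 in Xrn1-TAP, 178 in Dcp2-TAP and 134 in No-TAP. Tags per position at INO1 were 14.9, 10.2, 20.5 and 11.0 across the 4 libraries.

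ITR1 (YDR497C, chromosome IV) was denser still, in the control too. Its window held 14 positions with 194 tags in Xrn1-TAP, 10 positions with 181 tags in Dcp2-TAP and 19 positions with 313 tags in Lsm1-TAP, beside 7 positions with 73 tags in No-TAP. The folds over the mean window were 11.1 (6.08 to 18.6), 3.12 (1.50 to 5.74), 12.1 (7.27 to 18.8) and 21.7 (8.72 to 44.7). In No-TAP, 3 coding genes, ITR1 among them, had at least 7 positions, and in Lsm1-TAP 7 genes had at least 19. In Dcp2-TAP, the deepest library, 302 genes had at least the 10 positions of ITR1.

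The regulator genes held fewer positions, from 0 to 6 in a library. INO2 (YDR123C, chromosome IV), which encodes the activating subunit of the heterodimer, had 0 positions in Xrn1-TAP, 6 with 94 tags in Dcp2-TAP, 4 with 76 tags in Lsm1-TAP and 1 with 9 tags in No-TAP. INO4 (YOL108C, chromosome XV), the gene of its partner, had 3 positions with 41 tags, 3 with 29, 2 with 6 and 0. OPI1 (YHL020C, chromosome VIII), the repressor gene, had 1 position with 3 tags, 4 with 48, 4 with 50 and 0. Each of these counts has an interval that holds the library's mean window, with folds from 0 to 3.10, so none of the 3 genes is separated from an average promoter at this depth. A count of 0 allows up to 3 positions or tags by the floor used here.

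**Figure D1:**
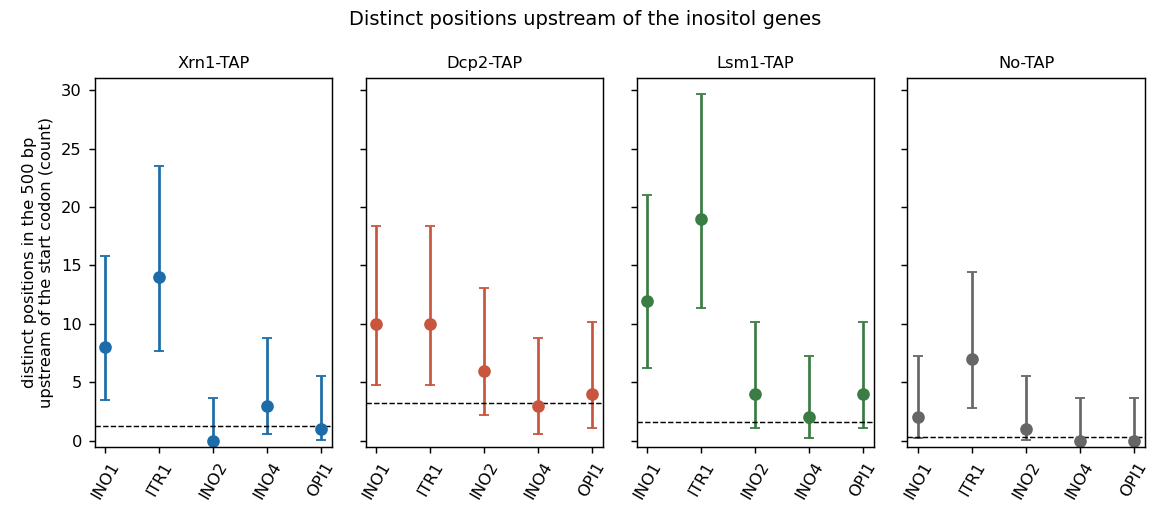
Distinct positions in the upstream window of 500 bp (y axis, count) for the 5 genes (x axis) in each of the 4 libraries. Bars are exact 95% Poisson intervals and the dashed line is the mean over 5684 coding genes; INO1 and ITR1 lie above the line in all 4 panels, the regulators near it.

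In order of positions, ITR1 came before INO1 in Xrn1-TAP, Lsm1-TAP and No-TAP, and both had 10 in Dcp2-TAP. Their intervals overlapped in every library. In Lsm1-TAP the interval of ITR1 (11.4 to 29.7 positions) lay above those of INO2 and OPI1 (1.09 to 10.2 each) and INO4 (0.242 to 7.22), while that of INO1 (6.20 to 21.0) overlapped all of them. Summed over INO1 and ITR1 the positions stood at 8.73 (5.47 to 13.2), 3.12 (1.91 to 4.82), 9.85 (6.69 to 14.0) and 13.9 (6.38 to 26.5) times the mean across the 4 libraries. Summed over the 3 regulator genes they stood at 1.06 (0.288 to 2.71), 1.35 (0.720 to 2.31), 2.12 (1.02 to 3.89) and 1.03 (0.0262 to 5.76) times.

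A window was called when it held more positions than expected if those of the library were spread evenly (Poisson test, 1-sided, with a Benjamini-Hochberg adjusted p over all 5684 genes of 0.05 or less). INO1 and ITR1 were called in each tagged library and ITR1 in No-TAP, which makes 2 of 5 members beside 4.50% of all genes in Xrn1-TAP, 10.7% in Dcp2-TAP and 6.69% in Lsm1-TAP, and 1 of 5 beside 0.563% in No-TAP. By tags, 3, 5, 4 and 3 of the 5 were called, beside 32.2%, 40.7%, 31.2% and 14.2% of all genes. Since INO1 was picked for such values, nothing is read from these counts.

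At single bases, part of the positions upstream of ITR1 formed a compact pair of facing groups in the tagged libraries. On the forward strand, between 170 and 200 bp upstream, Xrn1-TAP had 2 positions at 194 and 195 bp with 35 tags. Dcp2-TAP had 2, at 177 and 189 bp, with 61 tags, the point at 177 bp being its densest with 47 tags. Lsm1-TAP had 5 between 180 and 199 bp with 98 tags, and its densest, with 45 tags, lay at 189 bp. No-TAP had 3, at 189, 194 and 197 bp, with 56 tags, which is 76.7% of all its tags in the window.

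On the reverse strand, between 200 and 250 bp upstream of ITR1, each tagged library had 4 positions and No-TAP had 0. They lay at 211, 216, 226 and 244 bp in Xrn1-TAP with 71 tags, at 203, 206, 214 and 225 bp in Dcp2-TAP with 64 tags, and at 206, 208, 212 and 225 bp in Lsm1-TAP with 83 tags. The gap between the forward and the reverse group was 16, 14 and 7 bp wide in the tagged libraries, named in the same order. The control shared the forward side of this arrangement, its own reverse positions lying at 186, 263, 298 and 383 bp. The bounds of these stretches were set after the values were seen, and the 0 in No-TAP allows up to 3 positions.

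Several of these ITR1 positions were the same base in different libraries. The forward base 189 bp upstream, index 1445655 on chromosome IV, held 45 tags in Lsm1-TAP, 17 in No-TAP and 14 in Dcp2-TAP. The forward base at 194 bp had 19 tags in Xrn1-TAP and 22 in No-TAP. The reverse bases at 206 and 225 bp had 13 and 15 tags in Dcp2-TAP and 17 and 32 in Lsm1-TAP. The reverse bases at 263 and 298 bp had 1 and 21 tags in Lsm1-TAP and 1 and 6 in No-TAP.

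Outside these groups the ITR1 window differed between libraries. Lsm1-TAP had a further forward group at 277, 278 and 280 bp with 16, 40 and 17 tags, facing a reverse position at 298 bp. The densest point of Xrn1-TAP, with 32 tags, lay on the forward strand 63 bp upstream of the start codon, where No-TAP had none within 100 bp. SEC20, an essential gene of vesicle traffic from the Golgi to the endoplasmic reticulum, ends 376 bp upstream of ITR1 and held 1, 1, 0 and 1 of the window's positions across the 4 libraries.

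**Figure D2:**
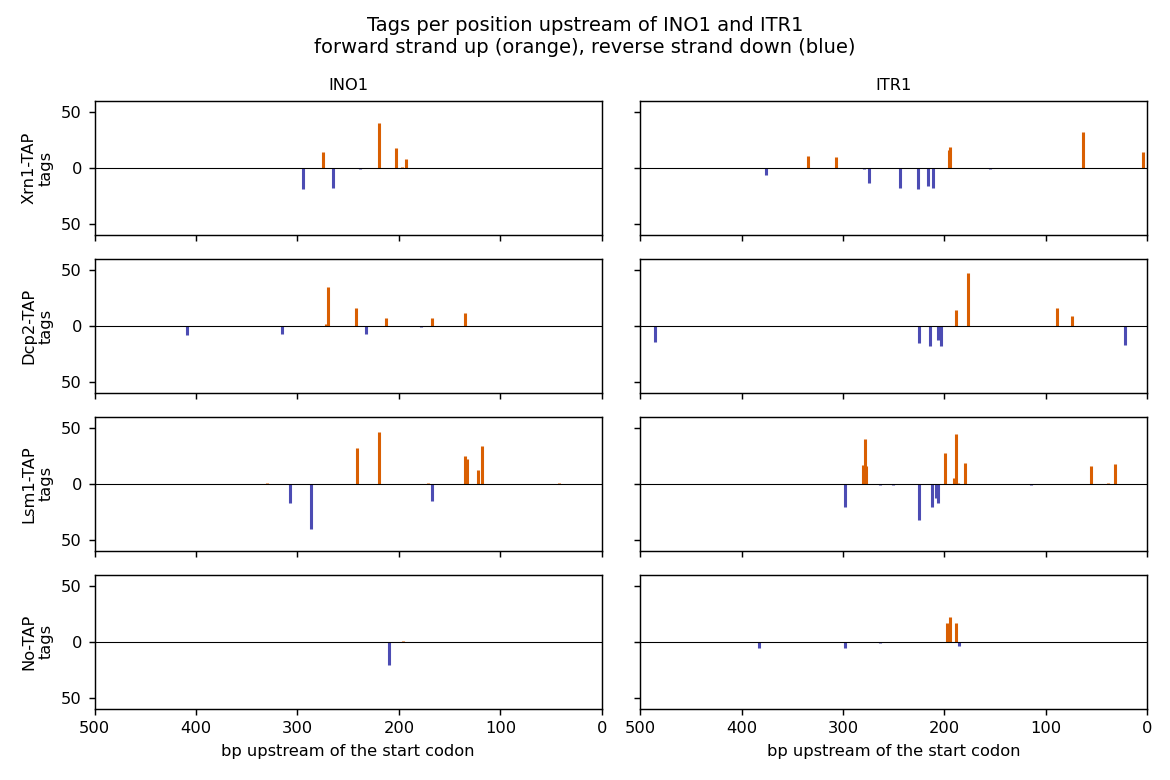
Tags at each position (y axis, count; forward strand up, reverse strand down) against the distance upstream of the start codon (x axis, bp) for INO1 and ITR1 in the 4 libraries. At ITR1 forward positions near 190 bp face reverse positions between 203 and 244 bp in the tagged libraries, while the control has forward positions there and its reverse positions at other distances, from 186 to 383 bp.

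At INO1 the positions were spread over a longer stretch. Between 190 and 280 bp upstream, forward-strand positions numbered 5 in Xrn1-TAP with 81 tags, 4 in Dcp2-TAP with 60, 2 in Lsm1-TAP with 78 and 1 in No-TAP with 1 tag. Between 260 and 320 bp, reverse-strand positions numbered 2, 1, 2 and 0, with 37, 7, 57 and 0 tags. The forward base at 220 bp, index 136152 on chromosome X, was the densest point of both Xrn1-TAP with 40 tags and Lsm1-TAP with 46 tags, and it was empty in Dcp2-TAP and No-TAP. The densest point of Dcp2-TAP lay 50 bp further out, at 270 bp on the forward strand with 35 tags.

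Lsm1-TAP had a further group of forward positions nearer to INO1. It held 4 positions between 118 and 135 bp upstream with 93 tags, which is 37.8% of the tags of its window. Dcp2-TAP had 1 position there, at the same base as Lsm1-TAP at 135 bp, with 12 tags against 25, and Xrn1-TAP and No-TAP had 0. The control's tags at INO1 lay at 1 reverse-strand base at 210 bp, with 21 of its 22 tags, where no tagged library had a position. SNA3, the gene next to INO1, ends 439 bp upstream of it and held none of the positions in any of the 4 libraries.

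The strands were counted in pairs, each forward position with each reverse position of the same window. Reverse positions lying 1 to 50 bp to the right of a forward one, on the far side from the start codon, made 9 pairs at ITR1 in Xrn1-TAP against 4 in the opposite order, 8 against 0 in Dcp2-TAP and 23 against 6 in Lsm1-TAP. In No-TAP there were 0 against 3, all with its reverse position at 186 bp, which had 4 tags. At INO1 the pairs were 6 against 2, 5 against 4, 5 against 3 and 1 against 0 in the 4 libraries. A position enters several pairs, so pairs are not independent, and these counts are given without an interval. Pairs were not counted over the windows of all genes, so nothing is read as particular to ITR1 or INO1.

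Among the regulators, INO2 had the clearest arrangement. In Lsm1-TAP its 4 positions lay within 40 bp, forward at 123 and 131 bp and reverse at 148 and 160 bp, with 7, 22, 20 and 27 tags. The 1 position of No-TAP was the same reverse base at 148 bp, with 9 tags. In Dcp2-TAP the densest point was elsewhere, on the forward strand 42 bp upstream with 53 tags, and it held 56.4% of the tags of the window. Near the Lsm1-TAP positions, Dcp2-TAP had a forward position at 122 bp with 1 tag and a reverse one at 141 bp with 15 tags. The gene next to INO2, YDR124W, is transcribed away from it and begins 847 bp upstream, beyond the window.

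INO4 and OPI1 had few, scattered positions. At INO4 Xrn1-TAP had forward positions at 30 and 83 bp with 13 and 18 tags and a reverse one at 173 bp with 10. Dcp2-TAP had a forward and a reverse position 10 bp apart, at 125 and 135 bp, with 9 and 14 tags, and Lsm1-TAP had 1 tag at 123 bp. The divergent gene YOL107W begins 216 bp upstream of INO4, so the outer part of that window, with 1 position each in Dcp2-TAP and Lsm1-TAP, is its coding region. At OPI1 all 4 positions of Dcp2-TAP were on the reverse strand, the densest at 236 and 245 bp with 24 and 13 tags, and the reverse positions of Lsm1-TAP lay at 255 and 291 bp with 14 and 20 tags. APM2, which encodes a protein related to clathrin adaptor subunits, ends 275 bp upstream of OPI1. Its end holds the 1 position of Xrn1-TAP, at 397 bp, and the densest point of Lsm1-TAP, at 291 bp. Ended at APM2, the window held 0 positions in Xrn1-TAP, and 30 of 50 tags in Lsm1-TAP.

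**Figure D3:**
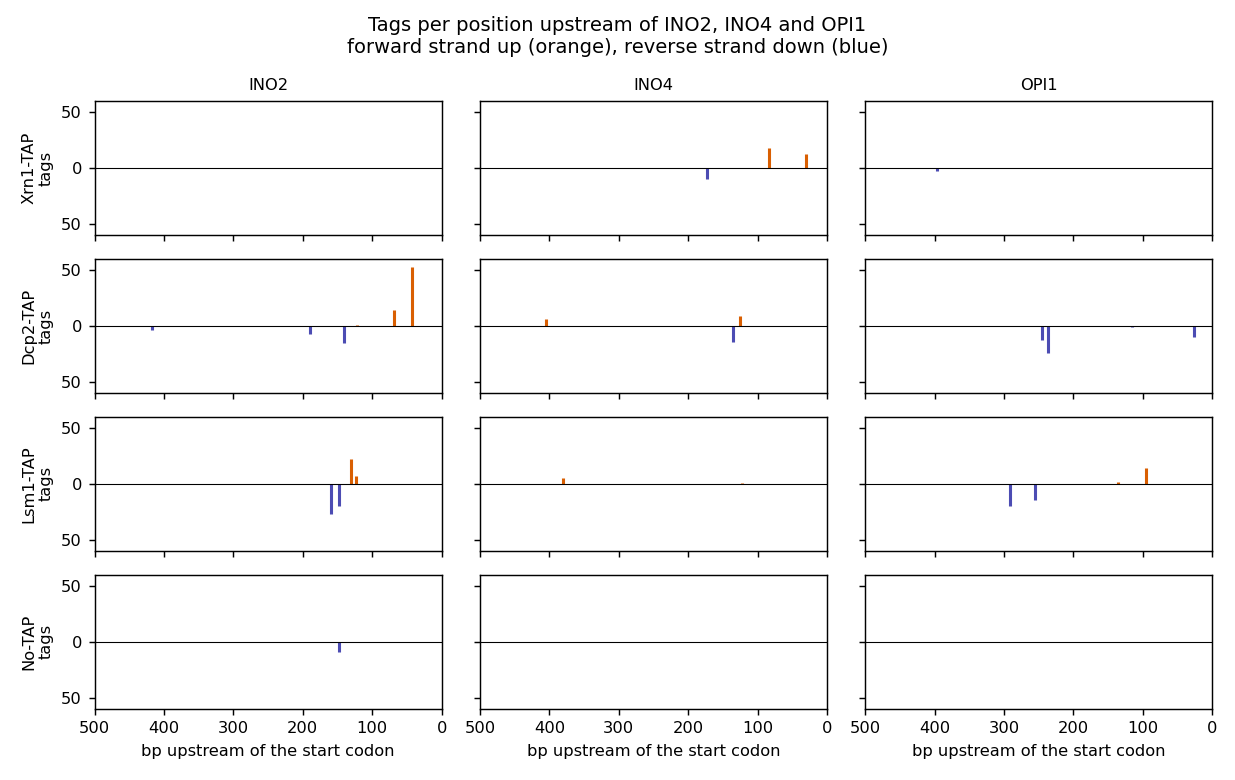
Tags at each position (y axis, count; forward strand up, reverse strand down) against the distance upstream of the start codon (x axis, bp) for INO2, INO4 and OPI1. Empty panels hold 0 positions: INO2 in Xrn1-TAP, and INO4 and OPI1 in No-TAP.

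Taken over the 5 windows, positions lay mainly 100 to 300 bp upstream of the start codon. Across the 4 libraries this stretch held 18 of 26, 22 of 33, 33 of 41 and 9 of 10 positions. These are 69.2%, 66.7%, 80.5% and 90% of the members' positions, beside 43.8%, 44.2%, 44.4% and 45.8% over the windows of all coding genes. INO1 and ITR1 held 22 of the 26, 20 of the 33, 31 of the 41 and 9 of the 10 positions. The shares therefore rest mainly on INO1 and ITR1.

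Many positions of ITR1 and INO1 were close to positions of other libraries. At ITR1, 5 of 14 positions of Xrn1-TAP, 6 of 10 of Dcp2-TAP, 11 of 19 of Lsm1-TAP and 5 of 7 of No-TAP lay within 5 bp of a position of another library on the same strand. At INO1 these numbers were 4 of 8, 5 of 10, 5 of 12 and 1 of 2. Over the windows of all coding genes the shares were 20.5%, 13.6%, 18.1% and 23.0%. Such shares rise with the density of positions, which at INO1 and ITR1 is well above the mean. At the regulators such neighbours were fewer. At INO2 1 of 6 positions in Dcp2-TAP, 2 of 4 in Lsm1-TAP and the 1 in No-TAP had one, and at INO4 0 of 3, 1 of 3 and 1 of 2 in the tagged libraries. At OPI1 none of the 9 positions in the tagged libraries had such a neighbour.

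The tagged libraries were next set against No-TAP, each scaled to its total outside the ribosomal DNA, in 3 comparisons that share the control. By positions, INO1 stood at 1.03 (0.205 to 9.94), 0.524 (0.112 to 4.92) and 1.14 (0.254 to 10.5) times No-TAP across the 3 tagged libraries. ITR1 stood at 0.514 (0.194 to 1.51), 0.150 (0.0515 to 0.464) and 0.516 (0.208 to 1.45) times. The number of members above No-TAP was 0 of 5 in each of the 3 libraries, beside 0.0176%, 0% and 0.0176% of all genes, and 1, ITR1 in Dcp2-TAP, lay below, beside 0.387% of all genes. In Xrn1-TAP and Lsm1-TAP 0 members lay below, beside 0.123% and 0.246%.

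Above and below here mean that the counting interval excludes 1. By tags, INO1 lay above No-TAP in Lsm1-TAP, at 1.79 times (1.15 to 2.91). Its Lsm1-TAP tags are the value by which INO1 was picked, so a high ratio there follows from the choice of the gene. It lay below No-TAP in Dcp2-TAP, at 0.431 times (0.270 to 0.717), with an interval that held 1 in Xrn1-TAP at 1.15 times (0.723 to 1.90). Of the 22 control tags at INO1, 21 lie at 1 base. All tag ratios of INO1 to No-TAP thus rest mainly on 1 control position, and their intervals treat tags as independent. ITR1 lay below in Xrn1-TAP at 0.563 times (0.428 to 0.747), in Dcp2-TAP at 0.230 times (0.175 to 0.307) and in Lsm1-TAP at 0.686 times (0.530 to 0.897). These intervals also treat tags as independent, while the 73 control tags of ITR1 lie at 7 positions. By positions only Dcp2-TAP lay below, the intervals of Xrn1-TAP (0.194 to 1.51) and Lsm1-TAP (0.208 to 1.45) holding 1. Both scalings divide out the larger totals of the tagged libraries, so an excess common to all genes is not seen in them. Another scaling used the median of the ratios at the 808 genes that every library detected. Since most windows are empty in No-TAP, this condition favours genes that are high in No-TAP, which lowers the median and raises all scaled ratios. With this scaling, which raises the log2 tag ratios of every gene by 0.82 for Xrn1-TAP, 1.01 for Dcp2-TAP and 1.15 for Lsm1-TAP, ITR1 turned above No-TAP in Lsm1-TAP, at 1.52 times (1.17 to 1.99), came to 0.997 times (0.758 to 1.32) in Xrn1-TAP and stayed below in Dcp2-TAP at 0.465 times (0.352 to 0.619). On that scale INO1 stood at 2.03 (1.28 to 3.36), 0.869 (0.544 to 1.45) and 3.96 (2.56 to 6.44) times across the 3 tagged libraries.

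The regulators have few or no control tags. INO2 in Xrn1-TAP, with 0 tags against 9 at 1 base, lay below No-TAP, with an upper bound of 0.107. It stood at 0.970 times (0.490 to 2.19) in Dcp2-TAP and 1.35 times (0.675 to 3.07) in Lsm1-TAP. Against a control floor of 3 tags (per library), INO4 stood at 2.89 times in Xrn1-TAP, and OPI1 at 1.49 times in Dcp2-TAP and 2.67 times in Lsm1-TAP. The exact lower limits of these ratios, 2.25, 1.16 and 2.09, are lower, so the folds against the floor are not lower bounds. With the window ended at APM2, OPI1 in Lsm1-TAP stood at 1.60 times the floor, with an exact lower limit of 1.22. By tags, counting each such case, 1, 1 and 2 of the 5 members lay above No-TAP across the 3 tagged libraries, beside 14.1%, 12.0% and 13.1% of all genes, and 2, 2 and 1 below, beside 11.8%, 11.9% and 13.1%. By positions every interval of a regulator gene held 1. By tags INO4 stood at 0.898 times the floor in Dcp2-TAP and 0.320 times in Lsm1-TAP. OPI1 in Xrn1-TAP had 3 tags, no more than the floor. The exact intervals in these cases held 1.

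Among the tagged libraries, Dcp2-TAP was the lowest at ITR1. By positions scaled to totals, ITR1 in Dcp2-TAP was at 0.291 (0.116 to 0.705) times Xrn1-TAP, and Lsm1-TAP at 3.44 (1.52 to 8.29) times Dcp2-TAP, while Lsm1-TAP and Xrn1-TAP were at a ratio of 1.00 (0.477 to 2.16). These counts were not brought to equal depth. With tags thinned to the No-TAP total, ITR1 stood at 13.7, 5.31 and 14.8 times the mean window in the 3 tagged libraries. Unthinned, the folds were 11.1, 3.12 and 12.1. By positions, Dcp2-TAP against Xrn1-TAP had 0 of 5 members above and 1 below, beside 0.0880% and 0.809% of all genes. Lsm1-TAP against Dcp2-TAP had 1 above and 0 below, beside 0.475% and 0.422%, and Lsm1-TAP against Xrn1-TAP had 0 above and 0 below, beside 0.0704% and 0.229%. At INO1 the ratios were 0.510 (0.181 to 1.49) and 2.17 (0.861 to 5.62), both intervals holding 1. By tags the same ratios were 0.376 (0.286 to 0.494) and 4.15 (3.28 to 5.28) at INO1 and 0.409 (0.332 to 0.504) and 2.98 (2.47 to 3.60) at ITR1, all excluding 1. These tag intervals treat tags as independent. At INO1 the higher Lsm1-TAP value again follows in part from the choice of the gene.

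INO2 had 0 tags in Xrn1-TAP. With these set to the floor of 3, the folds by tags were 13.7 in Dcp2-TAP and 19.1 in Lsm1-TAP. The exact lower limits, 11.0 and 15.2, are smaller, so these folds are not lower bounds. Both limits treat tags as independent, though 1 position can bring more than 3 tags. By positions the folds against the same floor were 0.816 and 0.985, with exact lower limits of 0.480 and 0.488, so no difference was detectable. By tags 2 of 5 members lay above and 3 below in Dcp2-TAP against Xrn1-TAP, beside 31.6% and 23.1% of all genes, and 4 above and 1 below in Lsm1-TAP against Dcp2-TAP, beside 23.0% and 34.7%. Lsm1-TAP against Xrn1-TAP had 4 above and 1 below, beside 25.5% and 27.0%.

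Coding regions and the DNA past the stop codons played no part in choosing the genes. Summed over the 5 genes, neither region had an interval above the rate of all genes in any of the 4 libraries. Over the 5 coding regions there were 4, 10, 15 and 1 positions across the 4 libraries, or 0.476 (0.130 to 1.22), 0.486 (0.233 to 0.893), 1.32 (0.739 to 2.18) and 0.463 (0.0117 to 2.58) times an even spread. The coding region of INO1 held 0, 5, 4 and 0 positions and that of ITR1 2, 1, 4 and 0. In Dcp2-TAP the 1 position in the coding region of ITR1 is 0.165 times an even spread (0.00417 to 0.917). This is 0.570 positions per kb, beside 2.58 in the coding regions of all genes. In the 300 bp past its stop codon, ITR1 had 4 positions in Dcp2-TAP, at 3.85 times (1.05 to 9.86), or 13.3 per kb beside 5.92. Neither value has an interval against the rate of all genes, so neither is read as setting ITR1 apart from other genes. Over the 5 genes these 300 bp held 7, 9, 3 and 2 positions in all, at 3.30 (1.33 to 6.81), 1.73 (0.792 to 3.29), 1.05 (0.216 to 3.06) and 3.67 (0.444 to 13.3) times an even spread. All coding genes have more than an even spread there too, at 2.24, 5.92, 3.01 and 0.606 positions per kb, and against that rate the 5 genes stood at 2.08 (0.838 to 4.29), 1.01 (0.463 to 1.92), 0.665 (0.137 to 1.94) and 2.20 (0.267 to 7.95) times. In the coding regions the ratios to all genes were 0.616 (0.168 to 1.58), 0.652 (0.313 to 1.20), 1.59 (0.889 to 2.62) and 0.602 (0.0152 to 3.35).

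The genes nearest to INO1 and ITR1 in pattern were found by the Euclidean distance, over the 4 libraries, of log2 of the fold over the mean window plus 0.5. For INO1 they were RPL7B, a ribosomal protein gene, with 7, 14, 12 and 2 positions at a distance of 0.463, YPL199C with 7, 17, 11 and 2 at 0.714, and YMR084W with 6, 8, 8 and 2 at 0.716. For ITR1 they were RKM3, a ribosomal protein methyltransferase gene, with 12, 21, 15 and 5 positions at 1.14, CDS1, which encodes CDP-diacylglycerol synthase, with 12, 23, 15 and 5 at 1.25, and FAS2, the gene of a fatty acid synthase subunit, with 15, 26, 21 and 6 at 1.28. All 3 have more Dcp2-TAP positions than the 10 of ITR1. RKM3 and CDS1 had equal counts in Xrn1-TAP, Lsm1-TAP and No-TAP. Whether their windows share DNA was not checked, so they may not be separate cases.

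The other genes of the pathway were counted in 3 lists. Of 18 measured genes listed as targets of the Ino2-Ino4 activator and Opi1, 6, 11, 8 and 3 were called by positions across the 4 libraries, beside 4.50%, 10.7%, 6.69% and 0.563% of all genes. By tags 10, 16, 10 and 7 were called, beside 32.2%, 40.7%, 31.2% and 14.2%. Their mean was 3.09, 3.14, 4.20 and 3.96 times that of all genes, and their median was 2, 7, 3.50 and 0 positions beside 1, 2, 1 and 0. The densest were FAS2 and CPT1, a cholinephosphotransferase gene, with 9, 27, 18 and 4 positions. CHO1, the phosphatidylserine synthase gene, had 2, 9, 8 and 0. Others were low, such as PAH1, the phosphatidate phosphatase gene, with 0, 1, 1 and 1. CTR1, a copper transporter gene whose symbol is also an older name of the choline transporter gene HNM1, was in the list as well; it had 2, 7, 1 and 0 positions and was called in Dcp2-TAP. FAS1, on chromosome XI, was not used here, and KCS1, an inositol phosphate kinase gene, is also in the next list.

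Of the 12 other genes of inositol handling 0, 1, 0 and 0 were called by positions and 4, 8, 3 and 2 by tags, to be read beside the same shares of all genes. Their median was 1, 4, 1 and 0 positions beside 1, 2, 1 and 0, with a mean of 0.529, 1.27, 0.688 and 1.29 times that of all genes. The called gene was ITR2, the minor inositol transporter gene, with 2, 12, 3 and 3 positions. ARG82, an inositol polyphosphate kinase gene, had 1, 6, 1 and 1. Of 12 measured genes for co-regulators and general factors 0, 0, 2 and 0 were called by positions and 4, 7, 6 and 2 by tags. Those called by positions were TEC1 with 4, 2, 5 and 0 positions and REB1, the gene of a general regulatory factor, with 3, 2, 6 and 0. The median of this list was 1, 2, 1.50 and 0 positions and the mean 0.860, 0.728, 1.11 and 0.775 times that of all genes. The lists were not tested against each other.

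**Figure D4:**
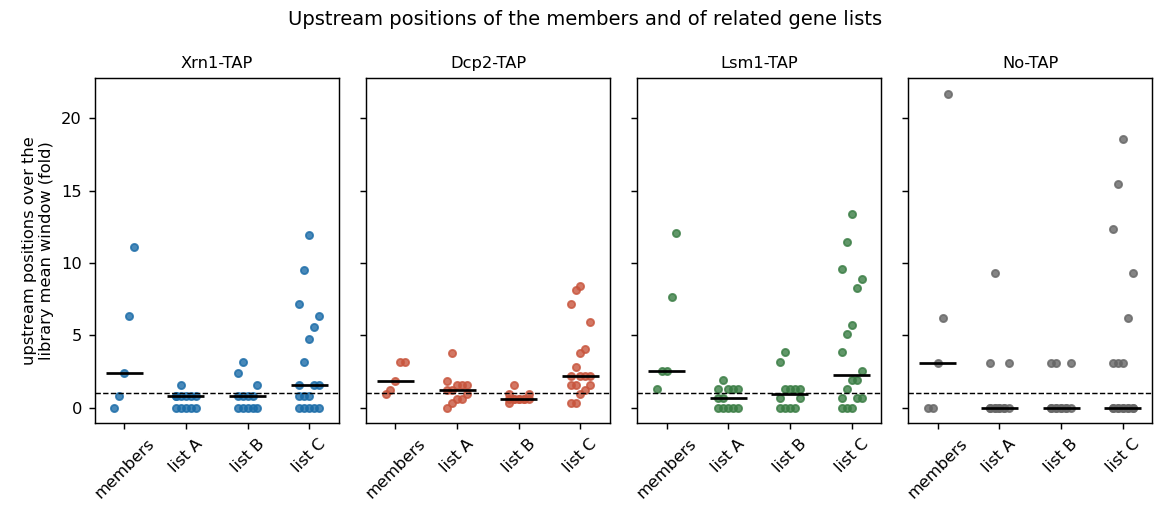
Upstream positions over the library mean window (y axis, fold) for the 5 members, for list A (other genes of inositol handling, 12), list B (co-regulators, 12) and list C (other Ino2-Ino4 and Opi1 targets, 18) in each library. Points are genes, bars medians and the dashed line the mean of all coding genes; list A has its median just above the line in Dcp2-TAP and below it in the other libraries, and ITR1, INO1 and part of list C lie well above it, in No-TAP too.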

How the data were processed

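The authors deposited raw tag counts for each base, with a column for each strand and 1 for their sum, per the file headers. Formaldehyde fixation at 1%, sonication, pull-down on IgG beads and exonuclease treatment with lambda exonuclease and then RecJf are described in the labels' protocols. How tags were aligned, filtered and freed of duplicates, and the genome build, is not given in the sources used here, nor whether a file sums the 2 replicates that the series text names, so each file was taken as 1 library.

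Counts were analysed with scipy 1.17.1, pandas 2.3.3 and numpy 2.4.6 under Python 3.11.15, and drawn with matplotlib 3.10.9. Genes and start codons were taken from the R64 gene table and gene strands from the locus tags; chromosome XI, where the best offset was 340 bp, was left out. Ratios have exact conditional binomial intervals and counts exact Poisson intervals. The Poisson calls and the ratio intervals were checked on Poisson counts drawn at the rates of positions. Such counts follow the model by construction, so the check does not cover tags. Thinning was checked against random draws of Lsm1-TAP tags. No replicate-based test could be made with 1 library per group. No promoter sequence was used here, so the planned placing by base composition was not run. The named genes were the members, their neighbours, the 3 nearest in pattern to INO1 and ITR1, and the 2 with most positions of each of 3 lists; CHO1, PAH1, CTR1 and HNM1 were named after their values were seen. The members and lists were chosen with earlier results of these data known.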

Additional observations from a re-analysis of the deposited data

How the results depend on the processing

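Positions of the 5 genes over the mean window left the counting interval of the main value in several settings. The counting error of the new value was not taken into account. With a 150 bp window they came to 1.69 in Xrn1-TAP and 1.62 in No-TAP, the latter resting on the INO2 position at 148 bp alone. A 300 bp window gave 7.09 in Lsm1-TAP, and tags gave 6.21, 3.44 and 10 in the 3 tagged libraries. Once positions 100 bp or less from a No-TAP one were removed, the values were 1.29, 1.03 and 1.89. With that removal INO1 fell to 0 in Xrn1-TAP and 0.857 in Dcp2-TAP, and ITR1 to 0.857 in Dcp2-TAP; with 150 bp INO1 fell to 0 and 0.777 in the same libraries and ITR1 to 0 in No-TAP.

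The summed ratios to No-TAP depended on the setting. They were 0.669 (0.312 to 1.55), 0.346 (0.167 to 0.787) and 0.779 (0.384 to 1.74) in the 3 tagged libraries. With 150 bp they were 1.03 (0.102 to 50.7), 1.26 (0.186 to 53.8) and 2.85 (0.439 to 120). These wide intervals all hold 1, the control having only the INO2 position at 148 bp there, so no reversal is shown. By tags the summed ratios were 0.727 in Xrn1-TAP, which then excluded 1, and 1.06 in Lsm1-TAP, with intervals that treat tags as independent. Thinned to the No-TAP tag total they were 0.491 in Dcp2-TAP, which then held 1, and 1.01 in Lsm1-TAP. Without positions near the control they were 0.197 in Xrn1-TAP and 0.264 in Lsm1-TAP; this setting takes positions from the tagged libraries alone, so windows where No-TAP has positions lose theirs by construction. Median-ratio scaling is set on genes with tags in No-TAP and raises log2 ratios of positions by 0.96, 1.25 and 1.40. It gave 1.30 (0.607 to 3.02), 0.825 (0.397 to 1.88) and 2.05 (1.01 to 4.59). The Dcp2-TAP interval then held 1, and that of Lsm1-TAP lay just above 1. With this scaling the tag ratio of ITR1 in Lsm1-TAP became 1.52. The cause was not tested beyond what each setting removes.

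The numbers of called genes, 256, 611, 380 and 32 by positions, became 1830, 2314, 1772 and 806 by tags; 85 in Xrn1-TAP and 174 in Lsm1-TAP without positions near the control; 124 in Lsm1-TAP and 15 in No-TAP with 150 bp; and 211 in Lsm1-TAP for positions with at least 2 tags. Thinned counts are not whole and gave no calls. Other settings left these results within the counting interval of the main value, and numbers of called genes within 1.5 times. These were windows ended at the neighbouring gene, start codons moved by 30 bp and the ribosomal DNA kept in the totals. An exception was OPI1 in Xrn1-TAP, which came to 0 in a window ended at APM2. No paired analysis was possible because there is 1 library per strain. No-TAP, with 10 positions over the 5 genes, sets the limit of every ratio to it.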
